A study of Mus musculus with 16 samples.

Results

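The genes of cytochrome P450 families 2 and 3, enzymes that oxidise drugs, steroids, fatty acids and bile acids, were followed in RNA sequencing of 16 mouse livers. Members were protein-coding genes of the deposited count table whose mouse symbol reads Cyp2 or Cyp3, a subfamily letter and a number, with pseudogenes left out. This rule took 55 of the 46078 genes in the table, 48 in family 2 and 7 in family 3, and they fell into 14 subfamilies. The largest subfamilies were Cyp2c with 15 members, Cyp2d and Cyp2j with 8 each, Cyp3a with 7, Cyp2b with 5 and Cyp2a with 4. Cyp2e, Cyp2f, Cyp2g, Cyp2r, Cyp2s, Cyp2t, Cyp2u and Cyp2w had 1 member each. All mice were of the C57BL/6 strain, were 22 weeks old and had diet-induced obesity with hepatic steatosis, and each of 4 groups had 4 libraries. The Dicretin group received a co-agonist of the glucagon-like peptide receptor GLP1R and the glucagon receptor GCGR. The Semaglutide group received an agonist of GLP1R. The calorie-restricted group was brought to an equivalent weight loss by restricting calories, and the saline group received the vehicle. The sources used here do not give sex, diet, doses, length of treatment or the basis on which 4 livers per group were picked. Each library has its own number in the labels, which do not state that each is a separate animal, so p-values measure the spread between these libraries.

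Cytochrome P450s are heme proteins of the endoplasmic reticulum that insert an oxygen atom into their substrates, using electrons passed on by the P450 oxidoreductase Por. In mouse liver, families 2 and 3 supply most of the drug-metabolising P450s, and several are concentrated in hepatocytes around the central vein. Many are switched on by the nuclear receptors CAR (Nr1i3) and PXR (Nr1i2), and several differ between male and female mice through the pattern of growth hormone release. Their genes lie in clusters of close copies on a few chromosomes.

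Libraries held between 12.144 M and 18.755 M counts (M, mega), and 12910 genes were left after low counts were removed, 36 members among them. On a principal component analysis of all tested genes, the first component, with 38.883% of the variance, set the 4 Dicretin libraries apart from the other 12. On the second component, with 14.778%, Semaglutide library 11 lay at -60.1, apart from the other 3 of its group at -15.3 to 1.39, and the Dicretin libraries were spread from -30.5 in library 65 to 39.3 in library 14. Values without a library are given where a result rests on it. Summed levels of 8 hepatocyte markers were 95423 to 113146 CPM (counts per M counts of library size, after TMM scaling) in Dicretin livers, 130561 to 165364 CPM in Semaglutide livers, 140896 to 157047 CPM in calorie-restricted livers and 105780 to 129887 CPM in saline livers. The tissue label was thus borne out by hepatocyte markers in every library. Close copies share reads: 28 members shared over 10% of their 50-base stretches with another gene's transcripts, and 9 shared none. Cyp2c40 shared 72.1% and Cyp2c69 shared 54.8%, so their levels depend most on how the authors' counting treated reads that match several genes.

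Most P450 genes of these families fell in Dicretin livers against saline, while 5 of the 36 tested members passed the test in Semaglutide livers, beside 4.18% of all tested genes, and 3 in calorie-restricted livers, beside 7.53%. All 55 members together took 0.978 ± 0.0939% of the counts in Dicretin livers, 2.66 ± 0.257% in Semaglutide livers, 2.53 ± 0.302% in calorie-restricted livers and 2.55 ± 0.193% in saline livers (mean ± SD, n = 4 each). The Dicretin libraries lay between 0.922% and 1.12%, and no library of the other groups was below 2.25%. Against saline, Dicretin livers had 2 of the 36 tested members higher and 25 lower at an adjusted p under 0.05 by the quasi-likelihood test of edgeR, with p adjusted over all tested genes (Benjamini-Hochberg). Among all 12910 genes, 36.7% passed in this comparison, 17.5% higher and 19.2% lower. Of the 36 members, 19 fell at least 2-fold, and the median log2 fold change of the members was -1.04, against -0.01 for all tested genes. Among genes with at least 100 CPM in the mean of all libraries, 16 of 21 members were lower, against 22.9% of 1389 genes. These are bulk livers, in which fewer cells of a type and less RNA per cell cannot be told apart. The hepatocyte marker sums overlapped between Dicretin and saline livers, with 3 of the 8 markers higher and 2 lower in Dicretin livers, and their part in the P450 values was not tested. Summed levels of 6 markers of bile duct cells were 28.9 to 50.3 CPM in Dicretin livers and 63.2 to 82.5 CPM in saline livers, with 1 marker lower, and those of 6 macrophage markers were 158 to 476 CPM in Dicretin livers and 165 to 283 CPM in saline livers, with no marker called. Summed levels of 6 stellate cell markers were 34.2 to 85.3 CPM in Dicretin livers and 62.6 to 114 CPM in saline livers, with 2 markers lower. Of the other lists, 1 of 6 endothelial markers was higher and 1 of 5 tested lymphocyte markers lower, and the part of none of these lists was tested.

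The 25 lower members came from 10 of the 14 subfamilies. They were 3 of 4 tested Cyp2a genes, 2 of 3 Cyp2b genes, 8 of 12 Cyp2c genes, 3 of 5 Cyp2d genes, 2 of 3 Cyp2j genes and 3 of 4 Cyp3a genes, together with Cyp2e1, Cyp2f2, Cyp2g1 and Cyp2u1. Cyp2s, Cyp2t and Cyp2w had no tested member, and Cyp2r1, the only Cyp2r gene, did not pass. The 2 higher members were Cyp2a4 and Cyp2c68. The map of all tested members shows these changes library by library.

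**Figure D1:**
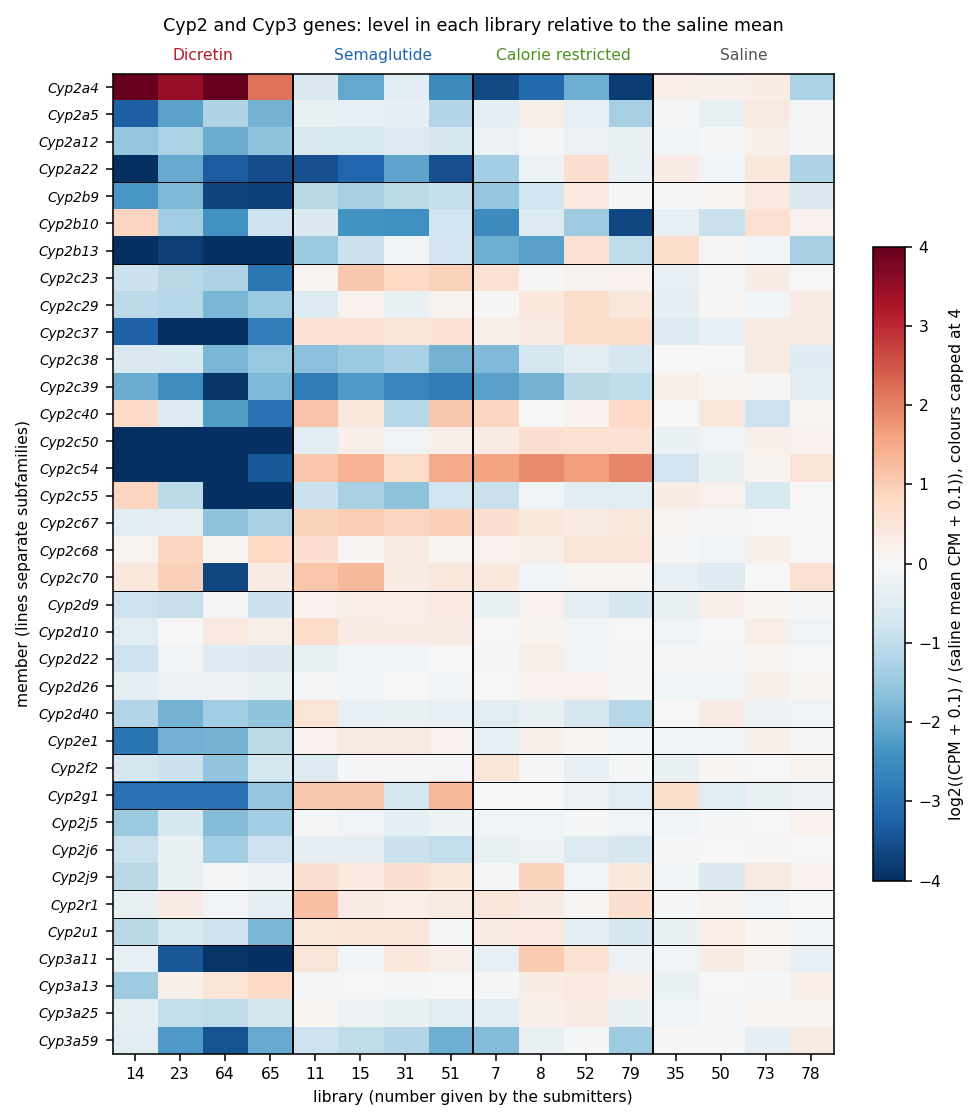
Heat map of the 36 tested members (rows, grouped by subfamily) in the 16 libraries (columns, in the order Dicretin, Semaglutide, calorie restricted and saline); colour is the log2 ratio of each library's CPM to the mean of the 4 saline libraries, with 0.1 CPM added to both and colours capped at 4 in either direction. Most rows are below the saline mean in the 4 Dicretin columns, while Cyp2a4 is far above it there.

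Cyp2e1, which oxidises ethanol, acetone and acetaminophen, was the most abundant member in every group. It had 1582, 3161, 3268 and 5681 CPM in Dicretin livers, 13546, 15508, 15319.9 and 13567 in Semaglutide livers, 9498, 13834, 12555 and 11252 in calorie-restricted livers and 11082, 10647, 13819.8 and 12508 in saline livers. Every Dicretin library lay below every library of the other groups, and the Dicretin libraries also differed most among themselves relative to their mean. Cyp2e1 fell in Dicretin livers, with a log2 fold change of -1.81 ± 0.26 (± SE) against saline (adjusted p = 3.31e-05). The gene made up 33.1% of all member counts in Dicretin livers, 52.9% in Semaglutide livers, 46.6% in calorie-restricted livers and 48.7% in saline livers. On a scale of CPM per kilobase of exon, Cyp2e1 reached 1586 in Dicretin livers, against 5567 in saline livers. The next members on that scale in Dicretin livers were Cyp2d26 with 564, Cyp2d10 with 429, Cyp2d9 with 274 and Cyp2a5 with 214. In saline livers, they were Cyp2a5 with 832, Cyp2d26 with 687, Cyp2d9 with 417 and Cyp2d10 with 408. The length used was that of all annotated exons merged, for Cyp3a11 5093 bases, against 2344 in its longest protein-coding transcript. These ranks depend on that choice.

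Cyp2c37, Cyp2c50 and Cyp2c54 fell furthest among the abundant members. They lie next to each other on chromosome 19, between positions 39992424 and 40113950 (GRCm38), and their enzymes oxidise arachidonic acid. Their start regions are shown because these neighbouring copies moved together: the 300 bases of the RefSeq promoter table (GRCm38.p6), which run from 250 before to 50 after each start, are given 5′ to 3′ for Cyp2c50 (chr19:40089429-40089728, plus strand) and Cyp2c37 (chr19:39992174-39992473, plus strand). Capitals mark letters that differ from the other gene or have no partner in it.
Cyp2c50: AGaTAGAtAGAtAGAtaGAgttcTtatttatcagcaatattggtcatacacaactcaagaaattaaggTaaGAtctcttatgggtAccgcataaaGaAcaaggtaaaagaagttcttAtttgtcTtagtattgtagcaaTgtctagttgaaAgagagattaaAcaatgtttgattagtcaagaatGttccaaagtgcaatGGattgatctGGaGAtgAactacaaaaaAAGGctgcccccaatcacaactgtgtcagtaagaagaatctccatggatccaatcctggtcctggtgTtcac
Cyp2c37: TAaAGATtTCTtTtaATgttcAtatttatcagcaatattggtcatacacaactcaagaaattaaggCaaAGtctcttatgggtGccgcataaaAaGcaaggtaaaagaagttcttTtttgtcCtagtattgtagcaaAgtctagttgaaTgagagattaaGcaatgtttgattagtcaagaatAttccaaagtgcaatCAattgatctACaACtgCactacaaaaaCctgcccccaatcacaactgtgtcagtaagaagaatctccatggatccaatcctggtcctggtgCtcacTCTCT
The pair was 88.475% identical, with 34 differing bases among 295 aligned and 10 columns with a gap. Cyp2c54 has no entry in this promoter table.

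Cyp2c50 had 31.3, 27.4, 7.05 and 38.5 CPM in Dicretin livers, 497, 768, 602 and 763 in Semaglutide livers, 827, 1061, 1012 and 991 in calorie-restricted livers and 556, 595, 758 and 739 in saline livers. Its Dicretin libraries were all far below every other library, with no overlap. Cyp2c50 fell in Dicretin livers, with a log2 fold change of -4.67 ± 0.36 against saline (adjusted p = 2.97e-08). Cyp2c37 had 42.6, 21.4, 5.15 and 58.97 CPM in Dicretin livers, 603, 600.5, 582 and 608 in Semaglutide livers, 473, 511, 654 and 663 in calorie-restricted livers and 274, 321, 502 and 516 in saline livers. Its Semaglutide libraries were close to each other and, like the other groups, lay above all Dicretin libraries. Cyp2c37 fell by 3.66 ± 0.49 on the log2 scale in Dicretin livers (adjusted p = 2.33e-05). Cyp2c54 had 3.75, 5.26, 1.02 and 11.1 CPM in Dicretin livers, 254, 304, 194 and 334 in Semaglutide livers, 354, 435, 375 and 457 in calorie-restricted livers and 68.9, 98.1, 129 and 173 in saline livers. Here the order was Dicretin lowest, then saline, then Semaglutide, with calorie-restricted livers highest and no overlap between these 4 groups. The log2 fold change of Cyp2c54 in Dicretin livers against saline was -4.50 ± 0.47 (adjusted p = 1.54e-06), and -5.12 without Dicretin library 65. Summed over these 3 neighbours, which share reads, the level was 77.7, 54.02, 13.2 and 109 CPM in Dicretin livers, against 899.6, 1014, 1388 and 1428 CPM in saline livers. Of the members on either side, Cyp2c70 did not pass in this comparison, and Cyp2c69 had too few counts to be tested.

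**Figure D2:**
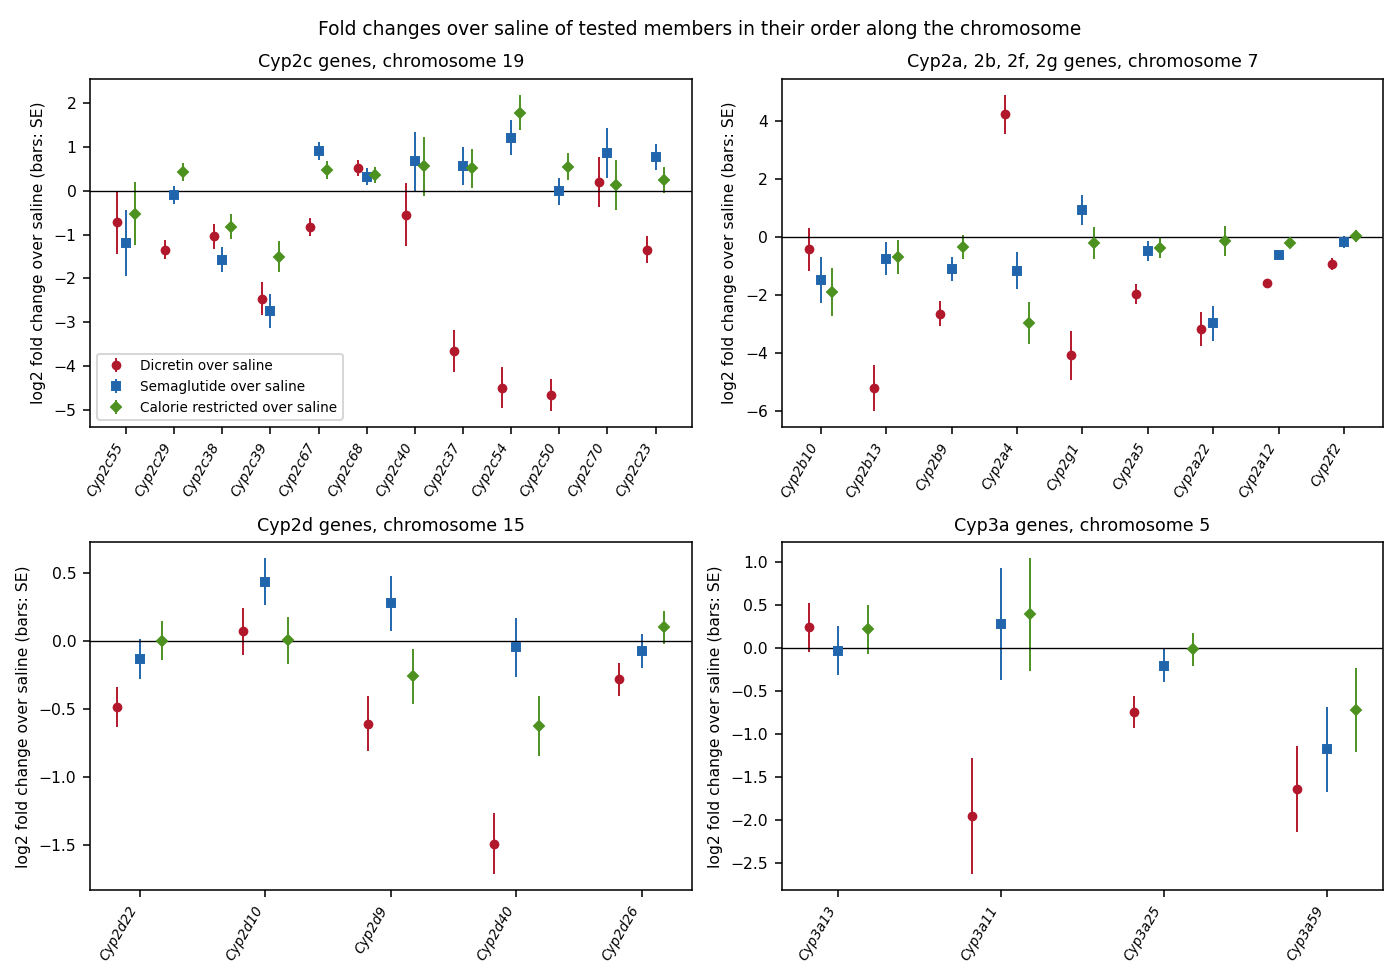
Log2 fold change over saline (vertical axis, bars are SE) of tested members in their order along the chromosome (horizontal axis, rank and not distance), for Dicretin (circles), Semaglutide (squares) and calorie restriction (diamonds), in 4 panels for the Cyp2c, the Cyp2a to Cyp2g, the Cyp2d and the Cyp3a genes. For Dicretin, Cyp2c37, Cyp2c54 and Cyp2c50 form a run of low values next to Cyp2c70, whose value is near 0.

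Among the other Cyp2c genes, Cyp2c29, Cyp2c23, Cyp2c67, Cyp2c38 and Cyp2c39 also fell, and Cyp2c68 rose. Cyp2c29, an arachidonic acid epoxygenase that CAR activates, had 323, 302, 187 and 235 CPM in Dicretin livers, 459, 749.5, 548 and 727 in Semaglutide livers, 687, 882, 1074 and 911 in calorie-restricted livers and 512, 689, 608 and 838 in saline livers. All of its Dicretin libraries were lower than any other library. Its log2 fold change against saline was -1.34 ± 0.21 (adjusted p = 8.59e-05). Cyp2c23, another arachidonic acid oxidase and one of the members with no shared stretches, had 121, 102, 92.2 and 29.4 CPM in Dicretin livers, 233, 465, 375 and 415 in Semaglutide livers, 324, 225, 239.7 and 244 in calorie-restricted livers and 175, 209, 268 and 221 in saline livers. Dicretin libraries were lowest and Dicretin library 65 was the lowest of all, and the log2 fold change against saline was -1.34 ± 0.30 (adjusted p = 0.00215). Cyp2c67 had 107, 109, 47.1 and 58.02 CPM in Dicretin livers, 264, 281, 259.7 and 276 in Semaglutide livers, 229.7, 191, 178 and 194 in calorie-restricted livers and 155, 134, 142 and 141 in saline livers. Its 4 groups did not overlap, with Dicretin lowest, saline next, calorie restriction above it and Semaglutide highest. Cyp2c67 shared 52.8% of its stretches with other genes, and its log2 fold change in Dicretin livers was -0.83 ± 0.21 (adjusted p = 0.00422).

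Cyp2c38 had 84.1, 82.5, 35.6 and 44.6 CPM in Dicretin livers, 39.7, 44.9, 51.5 and 34 in Semaglutide livers, 37.5, 77.4, 92.7 and 79.2 in calorie-restricted livers and 129, 126, 163 and 88.7 in saline livers. Saline libraries lay above all Dicretin and Semaglutide libraries and overlapped calorie restriction, and Dicretin libraries overlapped those of Semaglutide and calorie restriction. Cyp2c38 fell by 1.03 ± 0.28 on the log2 scale in Dicretin livers against saline (adjusted p = 0.00819). Cyp2c39, which oxidises retinoic acid, was far rarer, with 0.271 to 1.47 CPM in Dicretin livers and 3.97 to 6.35 CPM in saline livers, and fell by 2.46 ± 0.38 on the log2 scale (adjusted p = 6.83e-05). Cyp2c68 had 203, 339.9, 203 and 325 CPM in Dicretin livers, 299, 195, 239 and 200.3 in Semaglutide livers, 211, 217, 265 and 267 in calorie-restricted livers and 175, 168, 215 and 189 in saline livers. The Dicretin libraries overlapped those of saline, with libraries 23 and 65 above the rest. Cyp2c68 shared 43.3% of its stretches with other genes and was 97.04% identical to Cyp2c67, so shared reads could be assigned to either. Its rise of 0.52 ± 0.19 on the log2 scale had an adjusted p of 0.0371 with all libraries. That call was lost, with adjusted p between 0.0645 and 0.112, when Dicretin library 23 or 65 or saline library 35, 50 or 78 was left out. Cyp2c70, which makes the muricholic acids of rodent bile, had 390.2, 572, 23.2 and 367 CPM in Dicretin livers, against 232, 206, 289 and 443 CPM in saline livers. Dicretin library 64 alone was very low, and the log2 fold change of 0.21 ± 0.57 did not pass (adjusted p = 0.803). Without library 64 it was 0.60 (adjusted p = 0.0975). Cyp2c40 and Cyp2c55, both under 4 CPM in every library, did not pass either.

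The 2 near-identical genes Cyp2a4 and Cyp2a5 went opposite ways. Cyp2a5 is the coumarin hydroxylase of mouse liver, and Cyp2a4 a testosterone hydroxylase known as higher in females. Their transcripts were 98.27% identical over 1738 aligned bases. Their promoters from the same RefSeq table, shown because the 2 genes differ so little there, lie at chr7:26306942-26307241 (plus strand) for Cyp2a4 and chr7:26835089-26835388 (plus strand) for Cyp2a5. Capitals again mark letters that differ or have no partner.
Cyp2a4: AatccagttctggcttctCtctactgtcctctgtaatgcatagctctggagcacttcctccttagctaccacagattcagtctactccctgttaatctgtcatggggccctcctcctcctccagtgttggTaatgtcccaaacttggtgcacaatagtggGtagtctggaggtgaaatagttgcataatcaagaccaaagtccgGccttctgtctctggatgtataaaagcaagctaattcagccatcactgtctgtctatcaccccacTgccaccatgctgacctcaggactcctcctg
Cyp2a5: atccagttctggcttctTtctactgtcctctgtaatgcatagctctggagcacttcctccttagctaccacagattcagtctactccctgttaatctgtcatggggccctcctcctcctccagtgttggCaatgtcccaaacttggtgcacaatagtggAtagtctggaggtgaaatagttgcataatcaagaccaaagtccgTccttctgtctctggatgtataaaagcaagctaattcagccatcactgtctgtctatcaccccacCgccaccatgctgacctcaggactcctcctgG
The promoters were 98.328% identical, with 5 differing bases among 299 aligned and 2 columns with a gap.

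Cyp2a4 had 229, 151, 581 and 60.9 CPM in Dicretin livers, 8.92, 3.18, 9.91 and 2.19 in Semaglutide livers, 0.993, 1.45, 3.35 and 0.868 in calorie-restricted livers and 16.1, 15.5, 16.5 and 5.46 in saline livers. Every Dicretin library was above every other library, Dicretin library 64 by the most, and calorie-restricted libraries were the lowest group. Cyp2a4 rose in Dicretin livers by a log2 fold change of 4.25 ± 0.68 against saline (adjusted p = 0.000196), with a log2 fold change of 3.45 without library 64. Cyp2a5 had 178, 388, 749.6 and 463 CPM in Dicretin livers, 1446, 1388, 1315 and 760.5 in Semaglutide livers, 1322, 2012, 1373 and 681 in calorie-restricted livers and 1635, 1413, 2211 and 1638 in saline livers. Its Dicretin libraries lay below those of Semaglutide and saline, while library 64 exceeded the lowest calorie-restricted library. Cyp2a5 fell by 1.96 ± 0.36 on the log2 scale against saline (adjusted p = 0.00035). Of the summed Cyp2a4 and Cyp2a5 level, Cyp2a4 made up 56.2, 27.99, 43.7 and 11.6% in the Dicretin libraries, and between 0.332% and 1.09% in saline livers. The sum itself was 407, 539, 1331 and 523 CPM in Dicretin livers, against 1651, 1428, 2228 and 1644 CPM in saline livers, again with no overlap. Reads shared by the pair could be assigned to either gene, and exons of Cyp2a4 also overlap the antisense gene Gm42375, so the split between the pair is less certain than their sum.

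Cyp2a12 and Cyp2a22, the other pair of close Cyp2a copies at 96.533% identity, both fell. Cyp2a12, which hydroxylates bile acids, had 251, 309.6, 186 and 240.0 CPM in Dicretin livers, 472, 472, 515 and 457 in Semaglutide livers, 635, 716, 627 and 605 in calorie-restricted livers and 685, 711, 859 and 702 in saline livers. Its groups stood in steps with Dicretin lowest, Semaglutide next, and calorie restriction and saline overlapping at the top. Its log2 fold change in Dicretin livers was -1.58 ± 0.15 against saline (adjusted p = 2.75e-07). Cyp2a22 had 0.803, 8.69, 3.46 and 2.94 CPM in Dicretin livers, 3, 3.87, 8.10 and 3.01 in Semaglutide livers, 13.9, 31.01, 56.3 and 28.99 in calorie-restricted livers and 44.9, 33.3, 48.9 and 14.97 in saline livers. Dicretin and Semaglutide libraries overlapped each other and lay below both other groups. Cyp2a22 fell by 3.16 ± 0.60 on the log2 scale in Dicretin livers against saline (adjusted p = 0.000694), with a log2 fold change of -3.90 without Dicretin library 23.

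**Figure D3:**
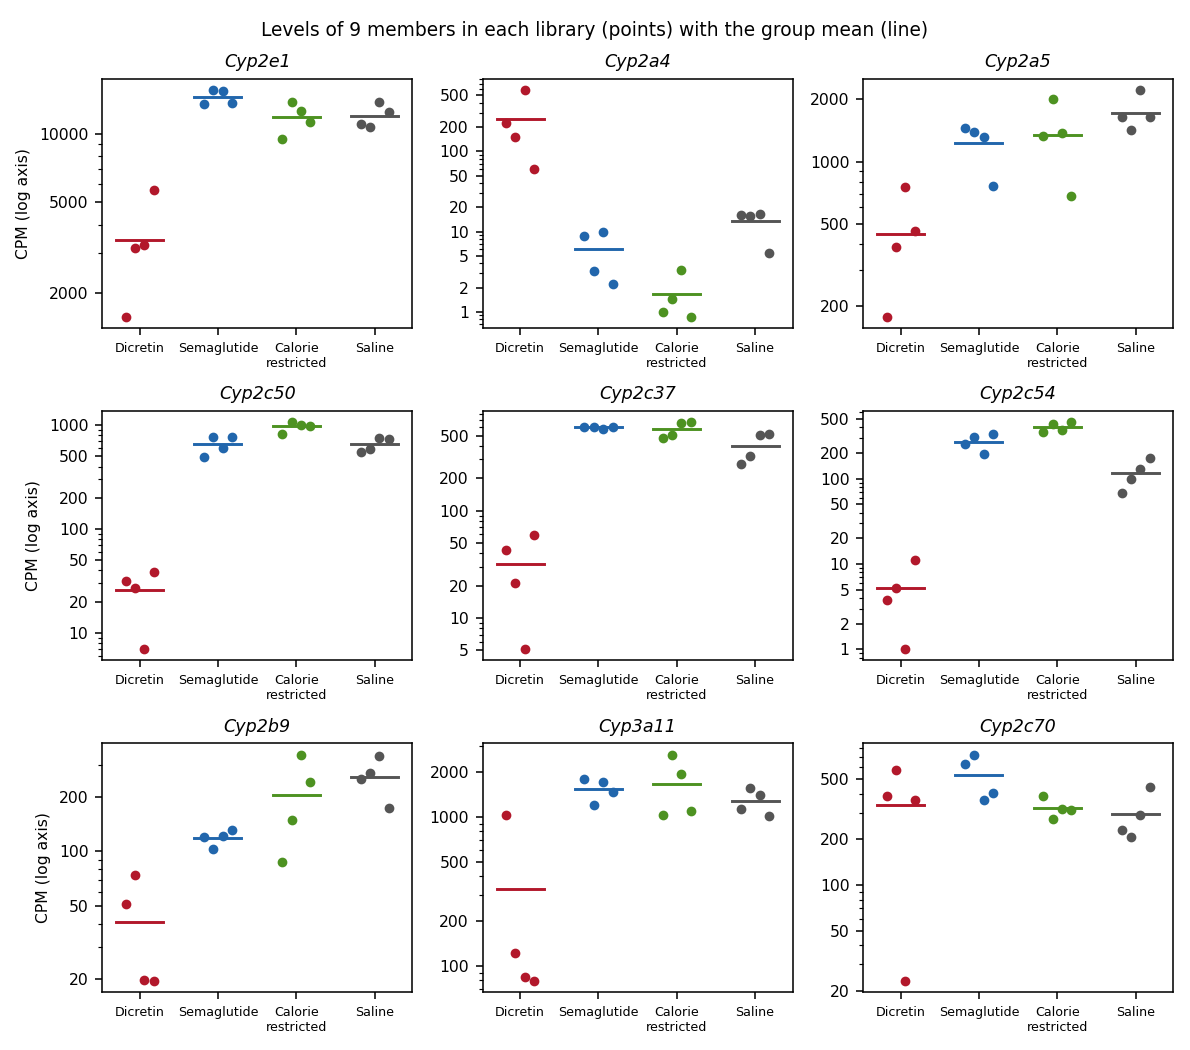
CPM (log axis) of 9 members in each library (points) with the group mean (line), for Dicretin, Semaglutide, calorie-restricted and saline livers in each panel. Dicretin points lie lowest for Cyp2e1 and Cyp2c50 and highest for Cyp2a4, and Dicretin library 14 lies apart for Cyp3a11 with 1030.3 CPM against 79.2 to 123 CPM in the other 3 Dicretin libraries.

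Letter patterns were counted on both strands in the promoters of the 47 members present in the RefSeq table and in all 27025 promoters. Only the first window of each gene in the table was taken. The Cyp2c39 window (chr19:39347096-39347395) lies away from the annotated gene (39510862 to 39568529), and its AGGTCA match is among the 18 below. AGGTCA, a sequence recognised by many nuclear receptors, was found in 18 member promoters (38.298%, against 16.041% of all), among them those of Cyp2a4 and Cyp2a5. In Cyp2a4 and Cyp2a5 the match lay after the start, read on the other strand as tgacct. Close copies were counted as separate windows, and none of the differences in share given here was tested. AGTTCA, a variant of it, was found in 10.638% of member promoters and 14.024% of all, and Cyp2c50 held it. TATAAA, the TATA box, was found in 23 member promoters (48.936%, against 14.161% of all), those of Cyp2e1, Cyp2a4 and Cyp2a5 among them. GTTAAT, part of the HNF1 site, was found in 12.766% of member promoters and 7.201% of all, and both Cyp2a4 and Cyp2a5 held it. TTCNNNGAA, the core recognised by STAT proteins, was found in 4.255% of member promoters and 8.466% of all. TGACG, which lies within the cyclic AMP response element TGACGTCA, was found in 4.255% of member promoters and 21.021% of all, and the full element in 0 member promoters and 1.876% of all. None of these 7 patterns was present in the Cyp2c37 window.

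In the Cyp2b subfamily, the female-biased genes Cyp2b9 and Cyp2b13 fell, while Cyp2b10, the classical target of phenobarbital and CAR, stayed under 3 CPM in every library. Cyp2b9 had 51.3, 74.05, 19.7 and 19.4 CPM in Dicretin livers, 120.1, 103, 122 and 131 in Semaglutide livers, 88.01, 149, 340.1 and 241 in calorie-restricted livers and 249, 270.3, 335 and 173 in saline livers. All Dicretin libraries were below all others, and Semaglutide libraries lay between Dicretin and saline. Its log2 fold change against saline was -2.64 ± 0.43 (adjusted p = 0.000181). Cyp2b13 had 0.161, 0.951, 0.339 and 0 CPM in Dicretin livers, 5.02, 7.73, 12.96 and 8.33 in Semaglutide livers, 3.62, 3.06, 21.5 and 6.88 in calorie-restricted livers and 23.3, 14.6, 13.1 and 5.62 in saline livers. It was close to 0 in every Dicretin library and at least 3 CPM in every other library. Its log2 fold change was -5.21 ± 0.79 (adjusted p = 0.000104), and -6.25 without Dicretin library 23. Cyp2b10 had 2.20, 0.380, 0.136 and 0.606 CPM in Dicretin livers, 0.750, 0.138, 0.130 and 0.626 in Semaglutide livers, 0.117, 0.764, 0.366 and 0 in calorie-restricted livers and 0.899, 0.582, 1.84 and 1.32 in saline livers. The groups overlapped, and the log2 fold change of -0.42 ± 0.74 did not pass (adjusted p = 0.688).

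Of the 5 tested Cyp2d genes, 3 fell. Cyp2d40 fell by 1.49 ± 0.22 on the log2 scale in Dicretin livers against saline (adjusted p = 5.19e-05). It had 36.3, 21.9, 30.7 and 26.7 CPM in Dicretin livers, 118, 65.4, 67 and 64.6 in Semaglutide livers, 57.9, 65.8, 50.6 and 36.5 in calorie-restricted livers and 80.03, 102, 70.97 and 71.7 in saline livers. Dicretin libraries were the lowest, touching calorie restriction at their upper end without overlap, and Semaglutide library 11 was the highest. Cyp2d22, the mouse gene most often set beside human CYP2D6, had 156, 252, 194 and 185 CPM in Dicretin livers, 222, 257, 254 and 270.1 in Semaglutide livers, 260.3, 325, 252 and 265 in calorie-restricted livers and 258, 267, 295 and 281 in saline livers. Dicretin and saline did not overlap, and the log2 fold change was -0.48 ± 0.15 (adjusted p = 0.0139). Cyp2d9, a testosterone hydroxylase that is higher in males, had 627, 591, 1076 and 615 CPM in Dicretin livers, 1238, 1329, 1333 and 1461 in Semaglutide livers, 902, 1258, 839 and 701 in calorie-restricted livers and 906, 1279, 1163 and 1083 in saline livers. Dicretin library 64 reached the saline range and the other 3 Dicretin libraries were below it. The log2 fold change of Cyp2d9 was -0.61 ± 0.20 (adjusted p = 0.0252). It did not pass when saline library 50 or 73, or Dicretin library 14, 23 or 65, was left out, with adjusted p between 0.0615 and 0.0907. Cyp2d26 had 952, 1050.5, 1049 and 993 CPM in Dicretin livers, 1169, 1152, 1253 and 1106 in Semaglutide livers, 1224, 1372, 1391 and 1283 in calorie-restricted livers and 1093, 1105, 1418 and 1306 in saline livers. Its Dicretin libraries were all below the saline libraries, yet the log2 fold change of -0.28 ± 0.12 missed the threshold (adjusted p = 0.0825). Cyp2d10 had 485 to 880.3 CPM in Dicretin livers and 600.4 to 811 CPM in saline livers and did not pass.

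Among the single-gene subfamilies, Cyp2e1 included, and the Cyp2j genes, 6 of 8 tested members fell in Dicretin livers. Cyp2f2, which activates naphthalene and is known as a gene of the portal side of the lobule, had 399, 348, 210.4 and 385 CPM in Dicretin livers, 427, 614, 613 and 599 in Semaglutide livers, 886, 595, 502 and 591 in calorie-restricted livers and 515, 672, 634 and 699 in saline livers. Dicretin libraries were the lowest without overlap, and the log2 fold change was -0.91 ± 0.21 (adjusted p = 0.0023). Cyp2u1, a fatty acid hydroxylase, had 13.2, 18.3, 16.1 and 7.97 CPM in Dicretin livers, 39.1, 40.2, 41.4 and 27.8 in Semaglutide livers, 35.8, 38.1, 21.8 and 17.6 in calorie-restricted livers and 23.9, 34.5, 30.2 and 26.5 in saline livers. Its Dicretin libraries lay below saline and Semaglutide and overlapped calorie restriction at the edge. Cyp2u1 fell by 1.05 ± 0.26 on the log2 scale against saline (adjusted p = 0.0037). Cyp2j5, an epoxygenase of fatty acids, had 267, 465, 224 and 284 CPM in Dicretin livers, 729.6, 676, 572 and 654 in Semaglutide livers, 687, 667, 705 and 677 in calorie-restricted livers and 693, 709, 751 and 847 in saline livers. Every Dicretin library was below every other library, and the log2 fold change was -1.27 ± 0.18 (adjusted p = 2.74e-05). Cyp2j6 had 57.04, 86.9, 40.04 and 59.8 CPM in Dicretin livers, 79.7, 79.5, 58 and 53.4 in Semaglutide livers, 86.6, 91.7, 72.6 and 65.9 in calorie-restricted livers and 101, 106, 109 and 105 in saline livers. Saline libraries were the highest without overlap with any group, and Dicretin libraries overlapped those of Semaglutide and calorie restriction. Its log2 fold change was -0.79 ± 0.19 (adjusted p = 0.00383).

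Cyp2g1, known from the olfactory mucosa, had 2 counts in all Dicretin libraries together, against 44 in saline livers. After scaling for library size, the level in saline livers was 21.6 times that in Dicretin livers, with a 95% interval of 5.64 to 184 that covers counting error only. Cyp2r1, a vitamin D hydroxylase, had 7.77, 12.2, 8.94 and 7.36 CPM in Dicretin livers, 22.2, 12.01, 11.6 and 12.3 in Semaglutide livers, 13.3, 11.99, 10.4 and 15.1 in calorie-restricted livers and 9.22, 10.6, 8.85 and 9.68 in saline livers. The Dicretin and saline libraries overlapped, and Semaglutide library 11 was the highest of all. Cyp2r1 and Cyp2j9 did not pass against saline.

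In the Cyp3a subfamily, Cyp3a11, Cyp3a25 and Cyp3a59 fell and Cyp3a13 did not pass. Cyp3a11, the main PXR target and the usual mouse counterpart of human CYP3A4, had 1030.3, 123, 84.8 and 79.2 CPM in Dicretin livers, 1813, 1198, 1715 and 1481 in Semaglutide livers, 1030.1, 2621, 1952 and 1100.0 in calorie-restricted livers and 1133, 1566, 1417 and 1011 in saline livers. Dicretin library 14 lay inside the saline range and the other 3 Dicretin libraries were far below it. Its log2 fold change was -1.96 ± 0.68 (adjusted p = 0.0337) with all libraries and -3.73 (adjusted p = 1.45e-07) without library 14. With library 14 kept, the call was lost when Dicretin library 23, 64 or 65, or saline library 35, 50 or 73, was left out, with adjusted p between 0.0563 and 0.0859. Cyp3a25 had 472, 306, 300.4 and 361 CPM in Dicretin livers, 635, 527, 505 and 428 in Semaglutide livers, 447, 692, 761 and 488 in calorie-restricted livers and 543, 584, 639 and 655 in saline livers. All 4 Dicretin libraries were below saline and the highest of them overlapped Semaglutide and calorie restriction. Cyp3a25 fell by 0.75 ± 0.19 on the log2 scale (adjusted p = 0.00461). Cyp3a59 had 27.6, 7.92, 3.32 and 9.44 CPM in Dicretin livers, 21.6, 18.8, 17.04 and 9.77 in Semaglutide livers, 11.4, 31.1, 35.8 and 14.1 in calorie-restricted livers and 39.2, 35.8, 28.9 and 48.5 in saline livers. Dicretin library 14 was again the highest of its group and lay just under the lowest saline library. The log2 fold change of Cyp3a59 was -1.64 ± 0.50 (adjusted p = 0.0174), was -2.45 without library 14, and did not pass without Dicretin library 23 or 65 (adjusted p = 0.0531 and 0.051). Cyp3a13, which shared no stretch with another gene, had 84.8, 261, 329.7 and 396 CPM in Dicretin livers, against 191, 227, 217 and 274 CPM in saline livers. Its library 14 was low where the other 3 were at or above most of saline, and its log2 fold change of 0.24 ± 0.29 did not pass (adjusted p = 0.546). Without library 14, Cyp3a13 was higher by 0.55 on the log2 scale (adjusted p = 0.0105).

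Sums over a subfamily do not depend on how reads were divided among the copies summed, and they are given without a test. They do depend on whether reads that match several genes were counted. They also depend on reads shared with genes outside the sum. Cyp2b13 shared 13.8% of its stretches with Gm45225, and Cyp3a11 shared 6.3% with Cyp3a41a. The symbol of Cyp3a41a ends in a letter, so the naming rule left this gene out of the Cyp3a sum. The Cyp2c sum was 1161 ± 407 CPM in Dicretin livers, 3602 ± 432 in Semaglutide livers, 3937 ± 303 in calorie-restricted livers and 2819 ± 486 in saline livers (mean ± SD, n = 4 each). The Cyp3a sum was 969 ± 436, 2314 ± 317, 2559 ± 926 and 2152 ± 243 CPM in the same groups. The Cyp2d sum was 2671 ± 407 CPM in Dicretin livers and 3369.6 ± 334 CPM in saline livers. As log2 ratios of the group means, Dicretin over saline, the sums gave -2.68 for Cyp2b, -1.81 for Cyp2e, -1.40 for Cyp2a, -1.28 for Cyp2c, -1.20 for Cyp2j, -1.15 for Cyp3a and -0.34 for Cyp2d. Every one of these 7 sums was lower in Dicretin livers, so the rise of Cyp2a4 and Cyp2c68 did not make up for the fall of the other genes of their subfamilies.

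**Figure D4:**
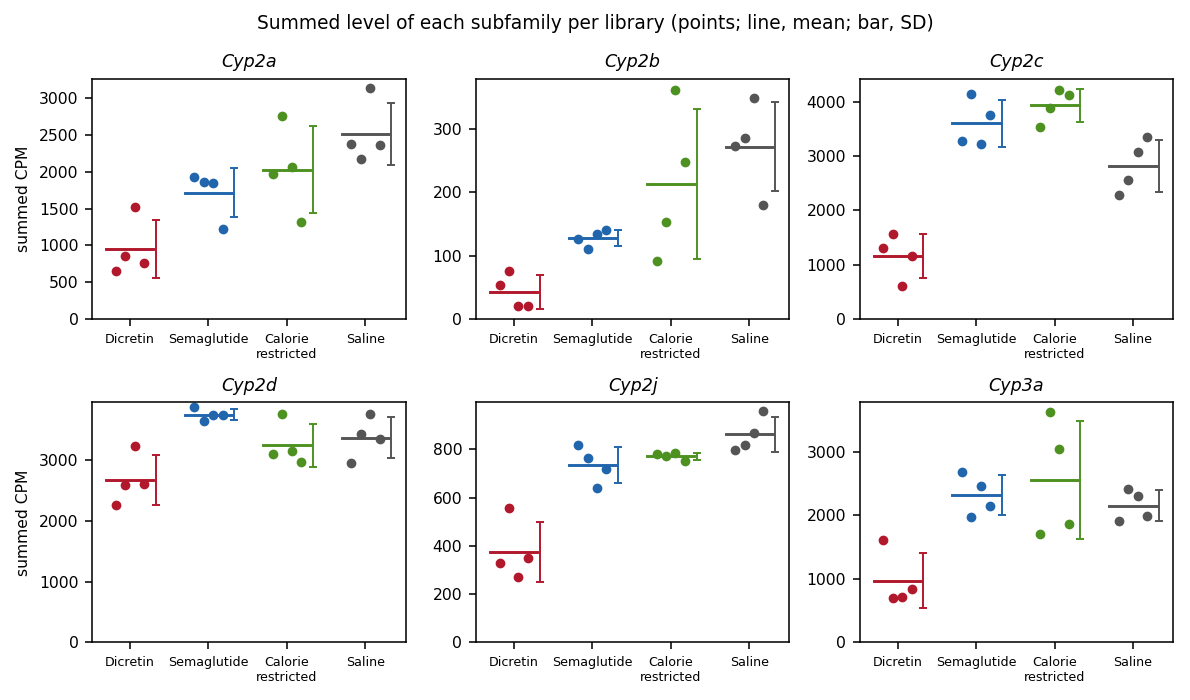
Summed CPM of the Cyp2a, Cyp2b, Cyp2c, Cyp2d, Cyp2j and Cyp3a subfamilies in each library (points) with the group mean (line) and SD (bar), for Dicretin, Semaglutide, calorie-restricted and saline livers in each panel. The mean of the Dicretin libraries is the lowest of the 4 groups in all 6 panels.

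Semaglutide was compared with saline to show the effect of the GLP1R agonist. Of the 36 tested members, 1 was higher and 4 lower, where 4.18% of all tested genes passed, 1.56% higher and 2.62% lower, and the median log2 fold change was -0.06 for members and 0.000373 for all tested genes. A fit of only these 2 groups gave 2 higher and 7 lower. In that fit 612 of all genes passed, against 539 in the model of all groups. Without saline library 50, 3 members in all and 268 of all genes passed. Cyp2c39 fell by 2.75 ± 0.39 on the log2 scale in Semaglutide livers (adjusted p = 0.000549), at 0.675 to 1.04 CPM there. Cyp2c38 fell by 1.57 ± 0.29 (adjusted p = 0.00391) and Cyp2a22 fell by 2.98 ± 0.59 (adjusted p = 0.00844). Their Semaglutide libraries, given above, all lay below the saline libraries. Cyp2a12 fell by 0.63 ± 0.15 (adjusted p = 0.0186), and this call was lost without saline library 50 or 73 (adjusted p = 0.0509 and 0.0853). Cyp2c67 rose by 0.92 ± 0.21 (adjusted p = 0.0149) and was no longer called without saline library 50 (adjusted p = 0.0586). Cyp2e1 did not pass, at 0.27 ± 0.25 (adjusted p = 0.604), and neither did Cyp2c54, at 1.21 ± 0.40 (adjusted p = 0.101), though its Semaglutide libraries were all above saline. The comparisons of Dicretin, Semaglutide and calorie restriction with saline share the same 4 saline libraries.

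Calorie restriction, which matched the weight loss without a drug, was also compared with saline. Here 1 of 36 members was higher and 2 lower, where 7.53% of all tested genes passed, 3.42% higher and 4.11% lower, and the median log2 fold change was -0.02 for members and -0.01 for all tested genes. A fit of only these 2 groups gave 4 higher and 4 lower. In that fit 2569 of all genes passed, against 972 in the model of all groups. Without calorie-restricted library 7 or saline library 35, 1 member passed, beside 502 and 526 of all genes. Cyp2c54 rose by 1.79 ± 0.41 on the log2 scale (adjusted p = 0.0122), with all calorie-restricted libraries above saline. Cyp2c39 fell by 1.51 ± 0.36 (adjusted p = 0.0137), with 1.11 to 2.61 CPM in calorie-restricted livers, and did not pass without calorie-restricted library 7 or saline library 35 (adjusted p = 0.0609 and 0.052). Cyp2a4 fell by 2.97 ± 0.72 (adjusted p = 0.0214), opposite in sign to its change in Dicretin livers. Cyp2a4 did not pass here when calorie-restricted library 7, 8 or 79 or saline library 35, 50 or 73 was left out, with adjusted p between 0.0539 and 0.0783. Over the Cyp2c subfamily, the log2 ratio of summed levels was 0.35 for Semaglutide over saline and 0.48 for calorie restriction over saline.

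The comparison of Dicretin with calorie restriction sets the co-agonist beside an equal weight loss. Of the 36 tested members, 1 was higher and 22 were lower in Dicretin livers, where 31.3% of all tested genes passed, 15.1% higher and 16.2% lower, and the median log2 fold change was -0.95 for members and -0.00335 for all tested genes. The hepatocyte marker sums of the 2 groups, given above, did not overlap and were lower in Dicretin livers, with 2 of the 8 markers higher and 1 lower. The macrophage marker sums were 158 to 476 CPM in Dicretin livers and 59.2 to 238 CPM in calorie-restricted livers, with 4 of the 6 markers higher and none lower. Among the markers of other cells, 1 endothelial and 1 neutrophil marker were higher and 1 stellate and 1 bile duct marker lower, and the part of these lists in the P450 values was not tested. Cyp2a4 rose by 7.22 ± 0.81 on the log2 scale (adjusted p = 8.96e-06), with log2 fold changes of 6.42 without Dicretin library 64 and 7.87 without calorie-restricted library 52. Cyp2c54 fell by 6.29 ± 0.51 (adjusted p = 1.09e-07), with a log2 fold change of -6.91 without Dicretin library 65, Cyp2c50 fell by 5.22 ± 0.37 (adjusted p = 1.72e-08), and Cyp2c37 fell by 4.17 ± 0.50 (adjusted p = 9.54e-06). These 4 genes had no overlap between the groups. Cyp2e1 fell by 1.78 ± 0.26 (adjusted p = 4.92e-05) and Cyp2a12 fell by 1.39 ± 0.15 (adjusted p = 1.48e-06). Cyp3a11 fell by 2.35 ± 0.69 (adjusted p = 0.0173), with a log2 fold change of -4.13 without Dicretin library 14. The smallest changes that passed were in Cyp2d26, at -0.38 ± 0.12 (adjusted p = 0.0259), and Cyp2d22, at -0.49 ± 0.15 (adjusted p = 0.0161). Cyp2d22 was lost without calorie-restricted library 8 (adjusted p = 0.0615), and Cyp2d26 without calorie-restricted library 8 or 52 or Dicretin library 65 (adjusted p = 0.0618, 0.0703 and 0.0545). Cyp2j9 fell by 0.72 ± 0.26 (adjusted p = 0.0448), with overlapping groups, and was lost without Dicretin library 14, 23 or 65 or calorie-restricted library 8 or 79 (adjusted p between 0.0605 and 0.185). Cyp2b13 fell by 4.53 ± 0.79 (adjusted p = 0.000483), with log2 fold changes of -3.55 without calorie-restricted library 52 and -5.58 without Dicretin library 23.

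Dicretin, the co-agonist, compared with Semaglutide, the GLP1R agonist, gave 1 of 36 members higher and 21 lower, where 32% of all tested genes passed, 14.8% higher and 17.1% lower. The median log2 fold change was -0.90 for members and -0.01 for all tested genes. Here too the hepatocyte marker sums did not overlap, at 95423 to 113146 CPM in Dicretin livers and 130561 to 165364 CPM in Semaglutide livers, with 2 of the 8 markers higher and 4 lower. Of the other lists, 2 of 6 stellate cell markers were lower and 1 of 6 endothelial markers higher, and the part of these lists was not tested. Cyp2a4 was higher by 5.40 ± 0.73 on the log2 scale (adjusted p = 4.78e-05), with a log2 fold change of 4.61 without Dicretin library 64. Cyp2c54 fell by 5.71 ± 0.49 (adjusted p = 2.34e-07), with a log2 fold change of -6.33 without Dicretin library 65. Cyp2c23 fell by 2.11 ± 0.31 (adjusted p = 4.87e-05) and Cyp2c67 fell by 1.75 ± 0.21 (adjusted p = 5.73e-06). Cyp2e1 fell by 2.08 ± 0.26 (adjusted p = 9.73e-06). In contrast, Cyp2a22, Cyp2c38 and Cyp2c39 overlapped between the 2 drug groups and did not pass (adjusted p = 0.847, 0.162 and 0.633), although each was lower than saline in both. Cyp2r1 fell by 0.68 ± 0.22 (adjusted p = 0.0227), with overlapping groups, and did not pass without Semaglutide library 11 or Dicretin library 14 or 65 (adjusted p = 0.106, 0.0614 and 0.0617). Cyp3a25 fell by 0.54 ± 0.19 (adjusted p = 0.0351), with overlapping groups, and was lost without Dicretin library 23, 64 or 65 or Semaglutide library 11, 15 or 31 (adjusted p between 0.0577 and 0.102). Cyp3a11 fell by 2.24 ± 0.68 (adjusted p = 0.0209), with a log2 fold change of -4.02 without Dicretin library 14, and was lost without Dicretin library 23 or 65 or Semaglutide library 11 (adjusted p = 0.0554, 0.0505 and 0.0556).

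Semaglutide compared with calorie restriction gave 0 of 36 members higher and 1 lower, where 6.12% of all tested genes passed, 3.05% higher and 3.07% lower. At an unadjusted p under 0.05, 11 members differed, and the share of all genes at that threshold was not computed. DESeq2 called 3 members and 1292 of all genes, where edgeR called 790 genes. The 1 member was Cyp2a22, which fell by 2.85 ± 0.59 on the log2 scale in Semaglutide livers (adjusted p = 0.00936). It missed the threshold without Semaglutide library 11 (adjusted p = 0.0513). Its per-library values, above, did not overlap between these 2 groups.

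Electron donors and binding partners of P450s fell in part in Dicretin livers. Among all tested genes, 17.5% rose and 19.2% fell in Dicretin livers against saline, with a median log2 fold change of -0.01. These values stand beside this list and the gene lists that follow. Of 6 donor and partner genes, 4 fell against saline and none rose, with a median log2 fold change of -0.70. Those that fell were Pgrmc1 (-0.75 ± 0.15, adjusted p = 0.000911), Pgrmc2 (-0.65 ± 0.14, adjusted p = 0.00109), both heme-binding partners of P450s, the cytochrome b reductase gene Cyb5r3 (-0.85 ± 0.19, adjusted p = 0.00164) and the cytochrome b gene Cyb5a (-0.74 ± 0.19, adjusted p = 0.00543). Cyb5b missed the threshold (-0.53 ± 0.23, adjusted p = 0.0836). Por, the oxidoreductase that every P450 of the endoplasmic reticulum depends on, averaged 747 ± 157 CPM in Dicretin livers, 441 ± 111 in Semaglutide livers, 326 ± 46.8 in calorie-restricted livers and 638 ± 98.1 in saline livers. Against saline, its change in Dicretin livers did not pass (0.23 ± 0.19, adjusted p = 0.368). Por was higher in Dicretin than in calorie-restricted livers by 1.20 ± 0.19 (adjusted p = 0.000125), and fell by 0.97 ± 0.19 in calorie-restricted livers against saline (adjusted p = 0.00436).

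Of 14 genes of heme synthesis and breakdown, 2 rose and 5 fell in Dicretin livers against saline, with a median log2 fold change of -0.12. Among all tested genes, 17.5% rose and 19.2% fell. The synthesis genes Cpox, Alad, Ppox and Alas1 fell: Cpox fell by 1.29 ± 0.15 (adjusted p = 2.5e-06), Alad fell by 1.02 ± 0.19 (adjusted p = 0.000341) and Ppox fell by 0.71 ± 0.18 (adjusted p = 0.0056). Blvrb, a biliverdin reductase, fell by 0.83 ± 0.20 (adjusted p = 0.00402). Hmox1, the heme oxygenase that opens the heme ring, averaged 61.98 ± 7.13 CPM in Dicretin livers and 22.5 ± 2.36 CPM in saline livers and rose by 1.46 ± 0.25 (adjusted p = 0.000208). Slc25a38, which carries glycine into mitochondria for heme synthesis, rose by 0.72 ± 0.16 (adjusted p = 0.00221).

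Of 25 regulators of these P450 genes, 3 rose and 11 fell in Dicretin livers against saline, beside 17.5% and 19.2% of all tested genes. The median of the regulators was -0.50. Nr1i3 (CAR) had 2.62, 4.50, 12.1 and 17.2 CPM in Dicretin livers, 57.3, 66.8, 60.3 and 43.1 in Semaglutide livers, 43.8, 84.3, 68.9 and 58.1 in calorie-restricted livers and 67.9, 77.5, 104 and 64.2 in saline livers. Every Dicretin library was below every other library. Nr1i3 fell by 3.13 ± 0.42 on the log2 scale (adjusted p = 2.27e-05). Nr1i2 (PXR) averaged 67.1 ± 22.5 CPM in Dicretin livers and 99.9 ± 8.82 CPM in saline livers and fell by 0.58 ± 0.18 (adjusted p = 0.018), a call lost when saline library 73 or Dicretin library 23 was left out (adjusted p = 0.0596 and 0.0643). Hnf4a, a central transcription factor of hepatocytes, rose by 0.82 ± 0.19 (adjusted p = 0.00274), and the coactivator Ppargc1a by 2.83 ± 0.16 (adjusted p = 1.08e-09). Among the others, the circadian factors Dbp and Hlf had log2 fold changes of -2.05 ± 0.35 and -1.26 ± 0.18 (adjusted p = 0.000217 and 3.31e-05), the bile acid receptor Nr1h4 fell by 1.004 ± 0.17 (adjusted p = 0.000189) and Arnt fell by 0.94 ± 0.17 (adjusted p = 0.000292). Dbp also changed in calorie-restricted livers against saline livers, where it fell by 3.35 ± 0.38 (adjusted p = 3.63e-05).

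**Figure D5:**
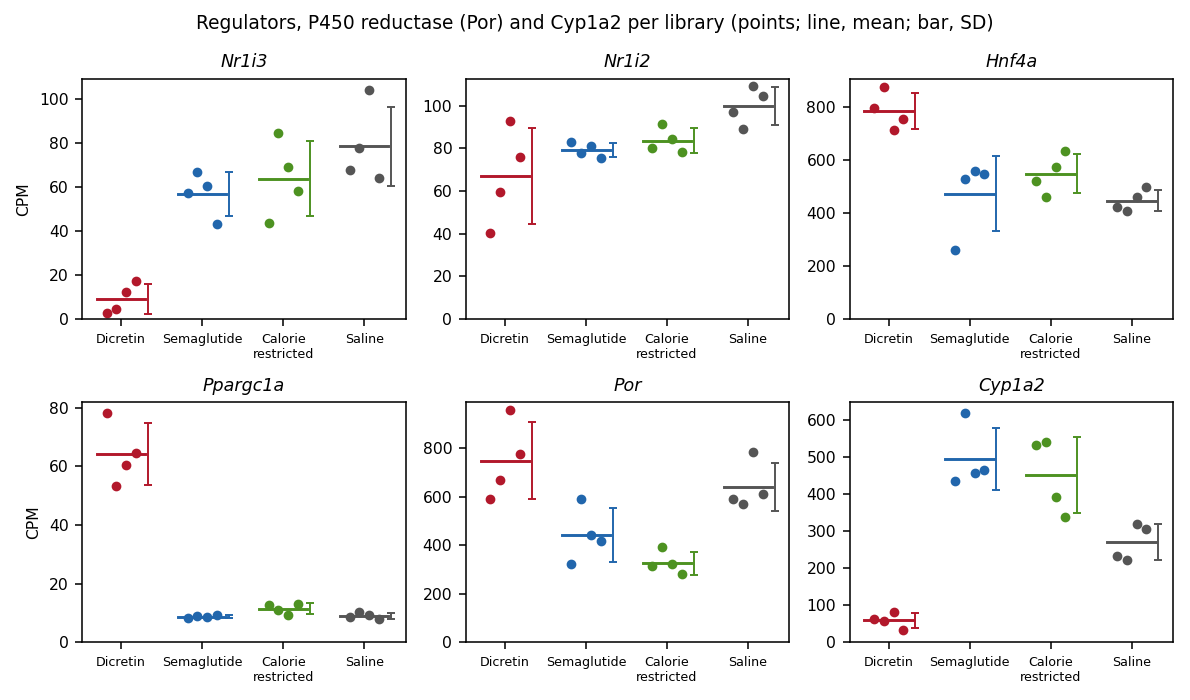
CPM of Nr1i3, Nr1i2, Hnf4a, Ppargc1a, Por and Cyp1a2 in each library (points) with the group mean (line) and SD (bar), for Dicretin, Semaglutide, calorie-restricted and saline livers in each panel. All 4 Dicretin libraries lie below the other libraries for Nr1i3 and Cyp1a2 and above them for Hnf4a and Ppargc1a, and the mean of Por is lowest under calorie restriction.

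Of 21 other genes known as CAR or PXR targets, 2 rose and 11 fell in Dicretin livers against saline, with a median of -0.99. The shares over all tested genes were 17.5% higher and 19.2% lower. The transporter gene Abcc3 fell by 2.54 ± 0.18 (adjusted p = 8.23e-09), the retinal dehydrogenase gene Aldh1a1 fell by 1.90 ± 0.18 (adjusted p = 3.36e-07), and the bilirubin glucuronosyltransferase gene Ugt1a1 fell by 1.28 ± 0.25 (adjusted p = 0.000662). The carboxylesterase gene Ces2c fell by 4.06 ± 0.52 (adjusted p = 1.04e-05; -5.19 without Dicretin library 14), and Thrsp, a lipogenic gene, fell by 4.49 ± 0.73 (adjusted p = 0.000215). Akr1b7, an aldo-keto reductase, went the other way, with 78.7, 6.53, 14.2 and 41.3 CPM in Dicretin livers, against 0.0562, 0.116, 0.136 and 1.24 CPM in saline livers. Its rise passed (log2 fold change 6.67 ± 1.02, adjusted p = 0.000127), with a size of 5.91 without Dicretin library 14 and 8.34 without saline library 78.

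P450 genes outside families 2 and 3 were more mixed in Dicretin livers against saline. Of 22, 4 rose and 6 fell, beside 17.5% and 19.2% of all tested genes, with a median of -0.16. Cyp17a1, the steroid hydroxylase and lyase, rose by 3.75 ± 0.35 (adjusted p = 2.27e-07) and the oxysterol hydroxylase gene Cyp39a1 by 2.85 ± 0.24 (adjusted p = 7.53e-08). Cyp1a2, which oxidises caffeine, fell by 2.18 ± 0.24 (adjusted p = 1.58e-06) and the fatty acid hydroxylase gene Cyp4a12a fell by 5.52 ± 0.65 (adjusted p = 7.92e-06; -7.00 without Dicretin library 23). The bile acid synthesis genes Cyp7a1 and Cyp8b1 were among the 6 that fell. A fall was thus counted for 25 of 36 tested members and for 6 of 22 listed genes of other families, and the difference between these shares was not tested.

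The members were also grouped by where and in which sex they are known to be expressed. Of 8 genes known from the central vein side (Cyp2e1, Cyp2a5, Cyp2b10, Cyp2c29, Cyp2c37, Cyp2c50, Cyp2c54 and Cyp3a11), 7 fell in Dicretin livers against saline, with a median log2 fold change of -1.96, and Cyp2b10 did not pass, where 19.2% of all tested genes fell. Among all 36 tested members, these 8 included, 25 fell. The list holds the neighbouring copies Cyp2c37, Cyp2c50 and Cyp2c54, which share reads. In the same list, 0 passed in Semaglutide livers against saline, where 4.18% of all tested genes passed, and 1, Cyp2c54, rose in calorie-restricted livers, where 3.42% of all tested genes rose. Cyp2f2, from the portal side, fell as well. Of 8 members known as higher in females, 5 were tested, of which Cyp2a4 rose and Cyp2b9, Cyp2b13 and Cyp2c39 fell in Dicretin livers, with a median log2 fold change of -2.46 for the list. Of 8 male-biased genes outside the families, 0 rose and 3 fell in Dicretin livers, 5 rose and 0 fell in Semaglutide livers, and 3 rose and 1 fell in calorie-restricted livers, each against saline. Among all tested genes, 17.5% rose and 19.2% fell in Dicretin livers, 1.56% rose and 2.62% fell in Semaglutide livers, and 3.42% rose and 4.11% fell in calorie-restricted livers. Slco1a1, an organic anion transporter among them, averaged 4.50 ± 2.29 CPM in Dicretin livers, 544 ± 67.8 in Semaglutide livers, 264 ± 89.3 in calorie-restricted livers and 53.9 ± 29.8 in saline livers. Against saline, Slco1a1 fell in Dicretin livers (adjusted p = 3.84e-06) and rose in Semaglutide livers (adjusted p = 0.000129). It also rose in calorie-restricted livers, with log2 fold changes of 2.03 to 2.60 as each library was left out, and passed each time.

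The remaining 19 members were not tested. No read was counted in any library for 7 of them: Cyp2b19, Cyp2b23, Cyp2c66, Cyp2j7, Cyp2j12, Cyp2w1 and Cyp3a16. Counts too low for the filter were recorded for the other 12: Cyp2c65, Cyp2c69, Cyp2d11, Cyp2d12, Cyp2d34, Cyp2j8, Cyp2j11, Cyp2j13, Cyp2s1, Cyp2t4, Cyp3a44 and Cyp3a57. Cyp2d11 reached 96 counts in saline library 35 and 68 in calorie-restricted library 79, with at most 11 in any other library. Cyp2c69 summed to 2 counts in Dicretin livers, 21 in Semaglutide livers, 37 in calorie-restricted livers and 2 in saline livers. The calorie-restricted libraries, with 3 to 16 counts each, did not overlap those of Dicretin or saline, with at most 1 count each. When the test was run with no filter on low counts, Cyp2c69 passed as lower in Dicretin than in calorie-restricted livers (adjusted p = 0.00761) and than in Semaglutide livers (adjusted p = 0.0331), and as higher in calorie-restricted than in saline livers (adjusted p = 0.0259). Of the other 11 members with counts below the filter, Cyp3a44 then passed as higher in Dicretin livers, with 9, 3, 0 and 1 counts against 0 in every saline library (adjusted p = 0.0281). Cyp2d12 passed as lower in Dicretin livers, with 0, 3, 2 and 3 counts against 12, 18, 6 and 3 in Semaglutide livers (adjusted p = 0.0491), where Semaglutide library 51 had as many counts as Dicretin libraries 23 and 65. No other difference of these 12 members passed in any of the 6 comparisons with no filter.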

How the data were processed

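Liver messenger RNA was measured in 16 libraries, 4 per group, as poly(A)-selected, strand-preserving libraries from flash-frozen tissue extracted with Trizol, per the labels' protocols. The authors deposited raw counts of reads for each gene, not normalized. Per the submitters' processing notes, TopHat2 2.1.1 and featureCounts were used with mouse build mm10. The version and options of featureCounts, its strand setting and the annotation release are not given in the sources used here. How the authors' counting treated reads that match several genes is therefore unknown, and close copies and genes overlapping on the other strand are uncertain.

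Symbols, gene types, exon lengths and positions came from GENCODE M21 (GRCm38, the same build as mm10), which named 45229 of the 46078 identifiers. Every row names a gene. Counts were filtered with filterByExpr in edgeR 4.0.16 (R 4.3.3; minimum count 10, by group), which left 12910 genes, scaled with TMM factors and fitted in a single model of 16 libraries with glmQLFit (robust) and glmQLFTest. P-values were adjusted by the Benjamini-Hochberg method over all tested genes within each of 6 comparisons, with a threshold of 0.05, and not across comparisons. SEs were taken from the log2 fold change and F, as their ratio with F under a square root. The model had no covariate, since no batch, sex or pairing is labelled, and no 2 libraries were identical. The procedure was tested on simulated data. Library totals of 12.144 to 18.755 M counts, 15.331 M on average, set the counting precision, and intervals cover counting error only.

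Every member was accounted for. Values in every library were given for members with a group mean of at least 10 CPM that passed in at least 1 comparison. They were also given for Cyp2e1, Cyp3a11, Cyp2b10, Cyp2f2, Cyp2u1 and Nr1i3. Values of Cyp2c70, Cyp3a13 and Akr1b7 were given in the Dicretin and saline libraries only. Nr1i3, Cyp2c70, Cyp3a13 and Akr1b7 were added after their values were seen. From each other gene list, up to 6 genes with the smallest p in Dicretin against saline were named, plus Nr1i3, Nr1i2, Hnf4a and Por. The members and lists were chosen with earlier results of these data known. Sharing was measured as the percentage of a gene's 50-base transcript stretches found in another gene's transcripts, and promoters came from RefSeq (GRCm38.p6).

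Results were recomputed with upper quartile factors, with size factors or the Wald test of DESeq2 1.42.0, with the members left out of scaling, with limma-voom (limma 3.58.1), no low-count filter, 1 CPM in at least 4 libraries, a fit of only 2 groups at a time, leaving out each library in turn, subfamily sums in place of single members, and, added after the data were seen, Semaglutide 11 and Dicretin 14 left out together.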

Additional observations from a re-analysis of the deposited data

Results flagged for a closer look

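In 12 of 144 groups of 4 libraries (36 members in 4 groups), 1 library lay far from the other 3, by Dixon's ratio of the gap to the range above 0.829. Chance flags about 1 in 20 such groups. Semaglutide library 11 accounted for 4 of them. It had 1123 CPM of Cyp2d10 (830 to 844 CPM in the other 3 Semaglutide libraries), 117.7 CPM of Cyp2d40 (64.6 to 67.0 CPM in the others), 22.2 CPM of Cyp2r1 (11.6 to 12.3 CPM) and 427.4 CPM of Cyp2f2 (599 to 614 CPM). Dicretin library 14 had 1030 CPM of Cyp3a11, against 79.2 to 123 CPM in the other 3 Dicretin libraries. Dicretin library 64 had 1076 CPM of Cyp2d9, where the others had 591 to 627 CPM. Dicretin library 65 had 0.1732 CPM of Cyp2g1, which is 2 counts, and the others had 0. Semaglutide library 31 had 8.1 CPM of Cyp2a22, with 3 to 3.87 CPM in the others, and Semaglutide library 51 had 27.8 CPM of Cyp2u1, with 39.1 to 41.4 CPM in the others. Among saline livers, library 73 had 858.7 CPM of Cyp2a12 (685 to 711 CPM in the others), library 78 had 5.459 CPM of Cyp2a4 (15.5 to 16.5 CPM), and library 35 had 1.18 CPM of Cyp2g1 (0.465 to 0.579 CPM).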

How the results depend on the processing

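Over all alternatives, 2373 values of single genes were recomputed: 2237 were classed as the same, 112 as weaker, 12 as stronger and 12 as changed in sign. For tested values, weaker means no longer passing and stronger means newly passing. Subfamily sums have no test, so their 67, 12, 1 and 9 values in these classes are not outcomes of the threshold. With the subfamily sum in place of the member, Cyp2a4 gave -1.09 for Dicretin against calorie restriction, -1.40 against saline and -0.85 against Semaglutide, since the sum is mostly Cyp2a5 and Cyp2a12. Likewise Cyp2c68 and Cyp2c70 gave -1.28 and Cyp3a13 gave -1.15 for Dicretin against saline, Cyp2c38 and Cyp2c39 gave 0.35 for Semaglutide and Cyp2c39 gave 0.48 for calorie restriction against saline. Cyp2c70 in Dicretin livers against saline, not called, became -0.43 with limma-voom and -0.15 without Dicretin library 23, and 0.60 without library 64. Cyp3a13, not called, became -0.012 without library 65 and 0.55, newly called, without library 14. The cause was not tested.

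Members called numbered 23 to 28 for Dicretin against saline, 20 to 25 against calorie restriction and 20 to 24 against Semaglutide as each library was left out in turn. They numbered 3 to 5 for Semaglutide against saline, 1 to 3 for calorie restriction against saline and 0 to 1 for Semaglutide against calorie restriction. Without Semaglutide library 11 and Dicretin library 14 together, 29 members were called for Dicretin against saline, 26 against calorie restriction and 22 against Semaglutide. Of all genes, 5537, 5264 and 4553 passed in these comparisons, against 4734, 4041 and 4128 with all libraries. A fit of only the 2 groups compared gave 9 members for Semaglutide and 8 for calorie restriction against saline. Of all genes, that fit called 612 for Semaglutide against saline. The DESeq2 Wald test gave 3 members for Semaglutide against calorie restriction. Counts over all genes as each library was left out were 3921 to 4822 for Dicretin against saline, 3262 to 4434 against calorie restriction, 3580 to 4240 against Semaglutide, 256 to 512 for Semaglutide against saline, 445 to 963 against calorie restriction, and 502 to 849 for calorie restriction against saline. The lowest counts of these last 3 came without saline library 35, calorie-restricted library 7 and calorie-restricted library 7, where 539, 790 and 972 passed with all libraries. Fitting only the 2 groups gave 2658 genes for Dicretin against Semaglutide (4128 in the model of all groups) and 2569 for calorie restriction against saline; DESeq2 gave 1528 there, 1292 for Semaglutide against calorie restriction and 982 for Semaglutide against saline. The summed Cyp2j log2 ratios for Dicretin were -1.45 to -1.07 against saline, -1.29 to -0.91 against calorie restriction and -1.22 to -0.84 against Semaglutide as each library was left out. The cause of these shifts was not tested.

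No paired analysis was possible because the groups share no replicate numbers in the labels. No scaling moved the median of all genes by 0.1 or more on the log2 scale. Depth limits the rare members: 7 had no count and 12 were under the filter, and Cyp2b10, Cyp2c39, Cyp2c40, Cyp2c55 and Cyp2g1 had few counts.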
